A study of Mus musculus with 16 samples.

Results

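The genes described here were 34 members of glycolysis and of the hypoxia response, chosen by function: glucose and lactate transporters, the glycolytic enzymes, lactate dehydrogenase, the enzymes that decide whether pyruvate enters mitochondria, and the sensors and targets of low oxygen. The choice was made with earlier results of these data known. Shares of members set against all genes below are therefore descriptions and not independent support. All 34 were present in each of the 9 CD8 T cell count matrices, which together list 32285 genes, of which 16243 are in each matrix. The study followed mouse kidney transplants that are accepted without immunosuppression or are rejected, and sequenced single viable CD45+ cells with 10x Genomics 3' chemistry. Libraries are told apart by a tag on each cell barcode, and a level is given below as unique molecular identifiers (UMIs) per 1000000 UMIs of a library's summed cells (CPM).

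The labels give every sample as wild type C57BL/6J. By the study's methods, accepted grafts were DBA/2J kidneys in C57BL/6J recipients, and rejecting grafts were C57BL/6J kidneys in DBA/2J recipients, so that rejection and recipient strain cannot be told apart. Both native kidneys of the recipients were removed at transplantation. The accepted groups held graft and recipient spleen at 1 week (3 libraries each), at 3 weeks (5 each) and at 24 weeks (3 each). The rejecting group at 1 week held 2 graft and 3 spleen libraries, and naive spleen held 5. Grafts were perfused and digested with collagenase, whereas spleens were ground without enzyme and treated with a red cell lysis buffer, so that tissue and preparation cannot be told apart in any graft against spleen comparison. The methods speak of biological replicates and of each mouse as a separate sample, but no source used here ties a barcode tag to a mouse, so p-values measure the spread between libraries, part of which may be technical.

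Cells with a UMI of Cd8a or Cd8b1 were kept and called dividing when at least 2 of 4 cycle genes (Mki67, Top2a, Birc5, Stmn1) were detected. At 1 week the accepted grafts gave 8902 non-dividing and 5061 dividing cells, and the recipient spleens gave 4982 and 280. Cells with a Cd8 UMI made up 84.8% of the accepted graft matrix at 1 week and 96.8% at 3 weeks, and 44.2% and 46.8% of the spleen matrices of these recipients. The share did not follow tissue throughout, since it was 77.2% in rejecting graft, 100% in rejecting spleen and 96.1% in naive spleen, and at 24 weeks 47.4% under the graft label and 94.6% under the spleen label. In some measures the 24-week libraries lay opposite to those of 1 and 3 weeks. Of 20 kidney parenchyma genes, 16 were at 0 in the non-dividing cells labelled graft and 6 in those labelled spleen, whereas 6 and 0 were at 0 in the accepted grafts of 1 and 3 weeks and 15 in each of their spleens, at unequal depth. The sum of these genes did not separate graft from spleen at 1 or 3 weeks and was 30.2 to 33.5 CPM under the 24-week graft label and 15.8 to 17.7 CPM under the spleen label, where the 1 gene tested was called higher under the graft label. Hspa1a, a heat shock gene named after its values were seen, was at 0.311 to 4.23 CPM in the libraries labelled graft and 445 to 729 CPM in those labelled spleen. It was at 173 to 775 CPM in accepted grafts of 1 and 3 weeks and at 0 to 0.733 CPM in their spleens. The 24-week libraries are therefore named by their labels throughout and kept apart from the other times. Of 496 pairs of libraries, 269 shared a cell barcode, with at most 21 shared by a pair.

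Glycolysis splits glucose to pyruvate in the cytosol and yields a little ATP. Activated T cells run it fast even with oxygen present, turn the pyruvate to lactate and export it, which feeds growth and effector functions. HIF-1, whose oxygen-regulated subunit is encoded by Hif1a, raises most of these genes when oxygen is low, and Myc raises many of them when T cells start to divide.

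In non-dividing CD8 T cells of accepted grafts at 1 week, most of the pathway from glucose uptake to lactate export was higher than in the spleens of the recipients. The summed level of the 34 genes was 3654, 3520 and 4173 CPM in the 3 graft libraries and 2144, 2160 and 2222 CPM in the 3 spleen libraries. The groups did not overlap. In sums over cells, more cells that express a gene and more RNA per cell cannot be told apart. For the 34 genes together, their share of the UMIs of the median non-dividing cell was 0.300% to 0.383% in the graft libraries. In the spleen libraries it was 0.198% to 0.205%. The quasi-likelihood test of edgeR, with p-values adjusted by Benjamini-Hochberg across every gene tested, called 17 members higher in the graft, 3 lower and 12 neither, with 32 of the 34 tested. Over all 10434 genes tested, 26.4% were called higher and 18.3% lower, and the median log2 fold change was 0.05 against 0.56 for the members. Of all calls 59.1% were higher, a share that was 51.0% with TMM factors and 36.5% when totals left out mitochondrial and ribosomal protein genes, under which 16 and 14 members were called higher.

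**Figure D1:**
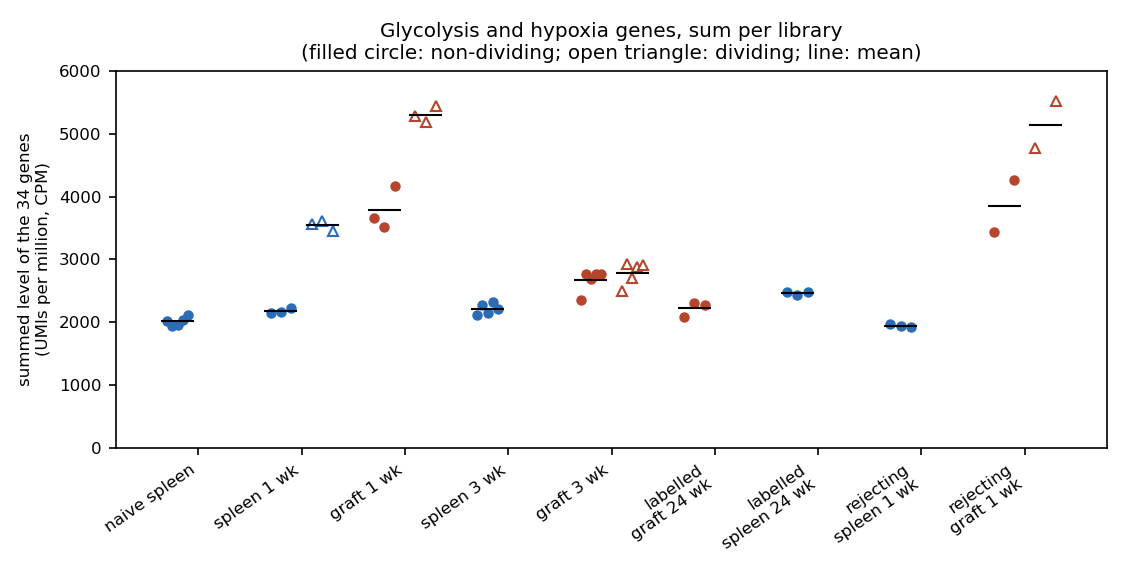
Summed level of the 34 genes in each library in CPM, by group. Filled circles are non-dividing cells, open triangles dividing cells (drawn for the 4 groups with enough of them), red is labelled graft, blue is labelled spleen and lines are means. Accepted grafts of 1 week sit at 3520 to 4173 CPM and their spleens at 2144 to 2222 CPM.

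Transport into and out of the cell showed one large and several small differences. Slc16a3 encodes MCT4, the lactate exporter of strongly glycolytic cells. Its level was 5.27, 5.91 and 9.32 CPM in the grafts and 0.390, 1.18 and 0.979 CPM in the spleens. This was an 8.02-fold higher level (log2 fold change 3.00, SE 0.39, adjusted p = 6.85e-06), although it rests on 154 UMIs in the grafts and 13 in the spleens. The gene passed the expression filter only through the grafts, where it was high. The glucose transporter gene Slc2a3 was higher by 1.53-fold (adjusted p = 0.00229), and it lost its call when cells without a Cd8 UMI were included. The other glucose transporter, Slc2a1, was at 14.2, 9.32 and 8.19 CPM in graft and 6.63, 8.52 and 6.03 CPM in spleen, and the groups overlapped (log2 fold change 0.59, adjusted p = 0.0516). The lactate transporter Slc16a1 (MCT1) passed the test at 1.37-fold but lost its call with other scalings and when any of 5 of the 6 libraries was left out.

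Among the enzymes of the first stage of glycolysis, the hexokinase isoform Hk2 stood out. It was at 10.9, 11.2 and 13.0 CPM in the grafts and at 3.31, 2.60 and 1.96 CPM in the spleens, with no overlap. The difference was 4.48-fold (log2 fold change 2.16, SE 0.24, adjusted p = 1.29e-06). The isoform Hk1 was at 41.9 ± 1.85 CPM in graft and 30.8 ± 3.24 in spleen (SD, n = 3), a rise of 1.35-fold, which was not called when totals left out mitochondrial and ribosomal protein genes. Glucose-6-phosphate isomerase, Gpi1, rose by 1.34-fold and lost its call under the same scaling. Of the phosphofructokinases, Pfkp rose by 1.74-fold, whereas Pfkl was at 18.0 ± 1.70 CPM in graft and 21.5 ± 2.97 in spleen (SD, n = 3, adjusted p = 0.168). Pfkm had 39 UMIs in the grafts and 19 in the spleens and was not tested. Aldolase A, which splits the 6-carbon sugar, was at 299 ± 12.0 CPM in graft and 163 ± 17.0 in spleen (SD, n = 3), 1.84-fold higher. Aldoc, a second aldolase, was low in both tissues and overlapped between them (log2 fold change 0.87, adjusted p = 0.0787). Tpi1, triose phosphate isomerase, was at 91.6, 91.4 and 99.3 CPM in graft and 29.8, 40.2 and 28.7 CPM in spleen. It was 2.88-fold higher (adjusted p = 3.55e-08).

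The second stage, which earns ATP, followed with 4 of its 5 tested members called higher. Gapdh was at 952, 958 and 1367 CPM in the grafts and at 370, 404 and 426 CPM in the spleens. The groups lay far apart, and the fitted difference was 2.73-fold (log2 fold change 1.45, SE 0.13, adjusted p = 1.09e-07). Phosphoglycerate kinase Pgk1 rose by 1.56-fold, the mutase Pgam1 by 1.77-fold and pyruvate kinase Pkm by 1.79-fold. The enolase Eno1, one step before Pkm, was at 121 ± 12.4 CPM in graft and 116 ± 7.19 in spleen (SD, n = 3, adjusted p = 0.652), and the other enolase Eno2 had 3 UMIs in the grafts and 0 in the spleens.

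At the branch from pyruvate, members moved in opposite directions. Ldha, whose product favours lactate formation, was at 319, 289 and 361 CPM in graft and 181, 178 and 216 CPM in spleen, a rise of 1.68-fold (adjusted p = 4.13e-05). Ldhb, whose product favours the reverse reaction, was at 7.23, 4.73 and 6.68 CPM in graft and 11.5, 12.5 and 11.6 CPM in spleen, and fell by 0.93 on the log2 scale (adjusted p = 0.00118). Pdk1 and Pdk3 encode kinases that block pyruvate dehydrogenase and so keep pyruvate out of the mitochondrion. Pdk1 was at 15.2, 13.8 and 12.0 CPM in the grafts against 68.8, 62.5 and 64.1 CPM in the spleens. It was 4.78-fold lower in graft (log2 fold change -2.26, SE 0.13, adjusted p = 3.03e-10). Pdk1 is a known HIF-1 target. Pdk3 was 1.74-fold higher, at 20.9 ± 3.24 CPM against 11.8 ± 3.37 (SD, n = 3). The kinases' target Pdha1 was at 54.6 ± 5.33 CPM in graft and 53.6 ± 2.54 in spleen (SD, n = 3, adjusted p = 0.877).

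The hypoxia genes split. Hif1a was at 219, 186 and 205 CPM in the grafts and 56.5, 63.2 and 56.6 CPM in the spleens, 3.46-fold higher (log2 fold change 1.79, SE 0.11, adjusted p = 5.78e-10). These are RNA levels, whereas oxygen acts mainly on the stability of the protein. Mif, a cytokine gene that HIF-1 can induce, rose by 1.47-fold. The remaining targets and sensors did not pass. The prolyl hydroxylase Egln1, which marks HIF for destruction, was at 39.3 ± 2.68 CPM in graft and 40.7 ± 2.93 in spleen (SD, n = 3, adjusted p = 0.792). Egln3, a hydroxylase that is itself a HIF target, had 51 UMIs in the grafts and 25 in the spleens (adjusted p = 0.275). The mitophagy gene Bnip3 was at 3.63 ± 0.277 CPM against 2.45 ± 0.0834 (SD, n = 3, adjusted p = 0.121). Its relative Bnip3l was at 124 ± 7.33 CPM against 105 ± 2.48 (adjusted p = 0.0547), and the collagen prolyl hydroxylase P4ha1 at 19.6 ± 0.266 CPM against 17.6 ± 1.68 (adjusted p = 0.432). The bifunctional enzymes that set the pace of phosphofructokinase also did not pass, Pfkfb3 with a log2 fold change of 0.32 (adjusted p = 0.239) and Pfkfb4 with -0.16 (adjusted p = 0.716). Myc was lower in graft, at 18.2, 19.2 and 19.9 CPM against 36.1, 26.3 and 33.9 CPM in spleen, a drop of 1.69-fold (adjusted p = 0.000347).

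Of the 17 calls of a higher level, 13 held under every alternative scaling, filter, cell rule and left-out library tried, and all 3 calls of a lower level did (Pdk1, Ldhb, Myc).

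Several other signals differed between these non-dividing graft and spleen cells, and their part in the results was not tested. Cells with exactly 1 of the 4 cycle genes made up 29.0% of non-dividing graft cells and 10.6% of spleen cells, and the summed level of 12 cycle genes was 897 to 1439 CPM in graft and 602 to 678 CPM in spleen. When non-dividing cells were taken to have none of the 4 cycle genes, 20 members were called higher in graft and 3 lower. Under that rule 2493 of all 9948 genes tested were called higher and 1742 lower. The 6 B cell markers, all called lower in graft, summed to 9.32 to 10.9 CPM in graft and 509 to 984 CPM in spleen, and the 9 myeloid markers, 6 called higher and 2 lower, to 303 to 415 and 152 to 176 CPM. The 4 CD4 T cell markers, of which 1 of 3 tested was called higher, summed to 235 to 256 CPM in graft and 36.9 to 43.5 CPM in spleen, and the 4 NK cell markers, of which both tested were lower, to 12.6 to 13.8 and 23.6 to 32.0 CPM. Red cell markers summed to 0.126 to 73.8 and 0.195 to 2.60 CPM and kidney parenchyma genes to 20.4 to 29.4 and 25.3 to 32.5 CPM, of which 0 of 4 and 1 of 20 genes were high enough to be tested, and that 1 was not called. Immediate early and stress genes summed to 4448 to 5119 CPM in graft and 2961 to 4803 CPM in spleen. Of their 20 genes 10 were called higher and 4 lower, among them Hspa1a, at 173 to 253 CPM in graft and 0 in all 3 spleen libraries. The CD8 T cell markers summed to 7602 to 8872 CPM in graft and 4728 to 5227 CPM in spleen. The median non-dividing cell had 2126 UMIs in graft and 2818 in spleen, with 4.34% and 5.84% of them mitochondrial.

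**Figure D2:**
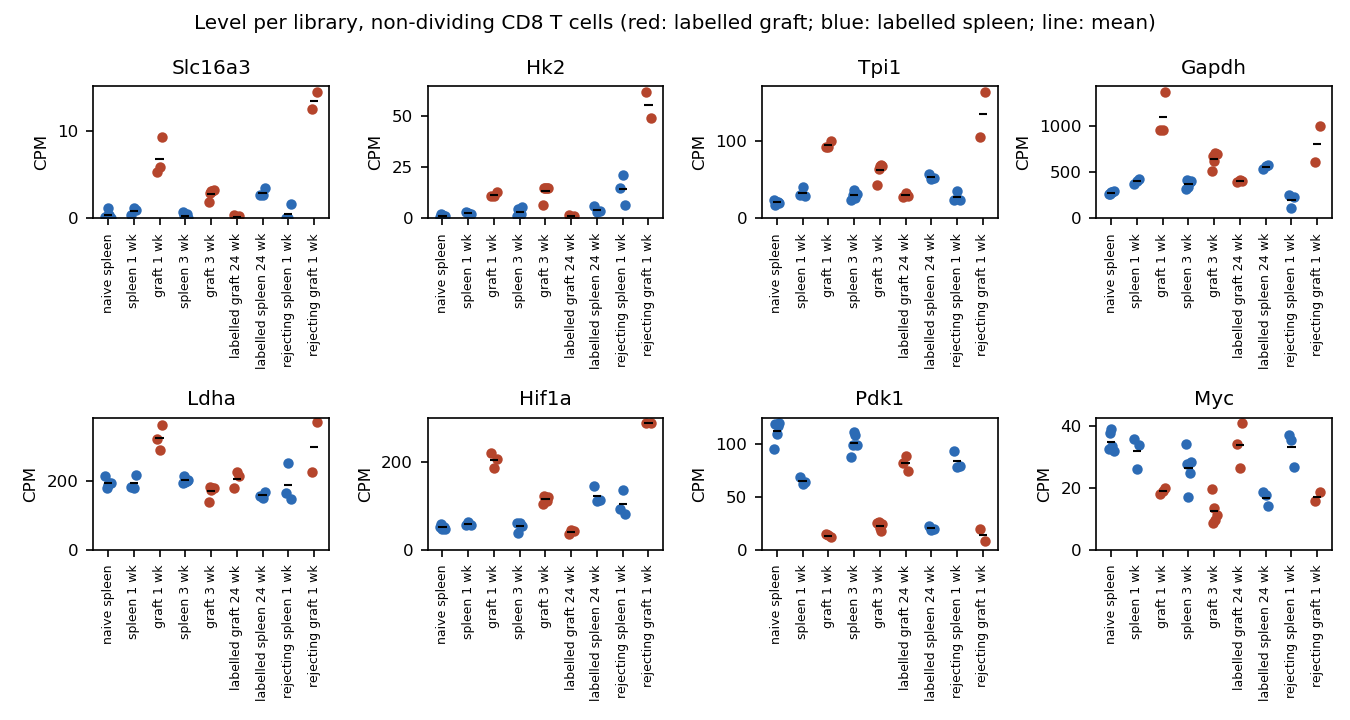
Level in CPM of 8 members in each library, non-dividing cells only. Each point is a library, red is labelled graft, blue is labelled spleen and the line is the mean. Hk2, Tpi1, Gapdh and Hif1a are higher in the 1-week and 3-week accepted grafts than in their spleens, Pdk1 is lower and Myc lower on average, and the 24-week libraries stand the other way round by label for these 6 genes.

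HIF-1 binds a short core, ACGTG or GCGTG, on either strand (CACGT or CACGC when read on the gene's strand; CACGTG holds a core on both strands and counts as 2 matches). RefSeq promoter windows on GRCm38.p6, the build of the submitters' mm10 notes, matched 31 of the 34 members by symbol (not Slc2a3, Bnip3l and Myc). In the 250 bases before a start site, 27 of these 31 members (87.1%) held a core in at least 1 window. Over all 27025 genes with a window it was 41.5%. The windows of the members were also richer in G and C, with a median of 61.6% against 52.4% over all windows. The promoters below belong to the 6 members with the largest differences at 1 week, in either direction, with each core in capitals. They are Slc16a3 (chr11:120948817-120949066, plus strand), Hk2 (chr6:82774455-82774704, minus strand), Tpi1 (chr6:124814159-124814408, minus strand), Gapdh (chr6:125165774-125166023, minus strand), Hif1a (chr12:73907617-73907866, plus strand) and Pdk1 (chr2:71872974-71873223, plus strand).
Slc16a3: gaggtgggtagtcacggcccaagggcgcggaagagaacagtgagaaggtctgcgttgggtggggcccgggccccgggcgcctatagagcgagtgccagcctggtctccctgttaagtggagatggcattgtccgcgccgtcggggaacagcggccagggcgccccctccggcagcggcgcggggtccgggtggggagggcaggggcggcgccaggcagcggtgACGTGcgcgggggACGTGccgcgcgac
Hk2: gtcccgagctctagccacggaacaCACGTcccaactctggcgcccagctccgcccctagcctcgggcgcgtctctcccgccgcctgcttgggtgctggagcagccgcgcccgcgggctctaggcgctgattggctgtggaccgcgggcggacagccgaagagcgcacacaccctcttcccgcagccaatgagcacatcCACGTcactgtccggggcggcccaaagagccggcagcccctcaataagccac
Tpi1: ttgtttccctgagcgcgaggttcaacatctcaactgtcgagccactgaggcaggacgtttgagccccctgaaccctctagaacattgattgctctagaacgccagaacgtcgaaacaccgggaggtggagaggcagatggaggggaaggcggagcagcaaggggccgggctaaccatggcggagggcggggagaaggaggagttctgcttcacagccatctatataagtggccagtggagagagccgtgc
Gapdh: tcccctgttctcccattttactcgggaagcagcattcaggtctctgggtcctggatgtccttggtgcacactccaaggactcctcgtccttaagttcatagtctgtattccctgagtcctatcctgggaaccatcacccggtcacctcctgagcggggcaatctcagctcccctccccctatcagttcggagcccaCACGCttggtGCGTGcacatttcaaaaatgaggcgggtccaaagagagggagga
Hif1a: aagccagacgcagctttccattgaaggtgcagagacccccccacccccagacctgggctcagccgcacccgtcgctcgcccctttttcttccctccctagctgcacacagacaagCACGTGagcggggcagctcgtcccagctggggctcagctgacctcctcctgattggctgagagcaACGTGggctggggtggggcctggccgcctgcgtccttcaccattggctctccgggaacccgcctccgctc
Pdk1: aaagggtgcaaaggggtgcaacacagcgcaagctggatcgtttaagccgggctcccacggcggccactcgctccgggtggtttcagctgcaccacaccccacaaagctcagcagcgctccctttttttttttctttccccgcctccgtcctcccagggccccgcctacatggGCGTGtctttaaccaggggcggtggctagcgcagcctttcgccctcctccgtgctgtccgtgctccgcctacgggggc
In these windows Hif1a held 3 matches, Slc16a3, Hk2 and Gapdh 2 each, Pdk1 1 and Tpi1 0. A second window of Pdk1, at another start site and not shown, held 0. A match is only a description of these letters and not a bound site.

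At 3 weeks the graft and spleen of accepted recipients differed less in the summed level, and the members differed in direction. The sum was 2355 to 2770 CPM in the 5 grafts (median 2760) and 2118 to 2320 CPM in the 5 spleens (median 2203), without overlap. Gapdh held a large part of this sum, and without Gapdh the groups would overlap. edgeR called 20 members higher and 8 lower, with 32 tested. The background was wide, since 48.7% of all 10606 genes were called higher and 16.7% lower, and the median of all genes stood at 0.28 on the log2 scale, against 0.44 for the members. TMM factors brought the median of all genes to 0.02 and the calls to 14 higher and 9 lower, and totals without mitochondrial and ribosomal protein genes gave 11 and 9. The share of all calls that were higher went from 74.4% to 52.1% and 42.6%. The small rises of Gpi1, Pfkp, Pfkl and Ldhb at 3 weeks turned to the other sign under at least 1 scaling or cell rule, and are not read as differences.

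The members with the largest changes at 1 week were called at 3 weeks too. Hk2 was at 6.40, 15.1, 14.9, 14.9 and 14.9 CPM in the grafts and 1.04, 4.40, 2.41, 2.07 and 5.68 CPM in the spleens, 4.31-fold higher (log2 fold change 2.11, SE 0.34, adjusted p = 1.99e-05). Graft library 1 was far below the other 4 but above every spleen library. Slc16a3 was at 1.86 to 3.25 CPM in the grafts and 0 to 0.691 CPM in the spleens, with 146 and 4 UMIs (log2 fold change 3.04, SE 0.51). It passed the expression filter only through the grafts, where it was high, so the size of its change is poorly known. Hif1a was at 105 to 122 CPM in the grafts and 39.2 to 60.3 CPM in the spleens, 2.16-fold higher (adjusted p = 2.87e-09). Tpi1 was 2.09-fold higher and Gapdh 1.72-fold higher, at 511 to 707 CPM against 318 to 414 CPM. Slc2a3 was higher by 1.74-fold, Hk1 by 1.61-fold, Pdk3 by 1.75-fold and Pgam1 by 1.53-fold. Aldoa (1.43-fold) and Pkm (1.36-fold) were called higher but were no longer called when totals left out mitochondrial and ribosomal protein genes. Pdk1 was at 18.3 to 26.4 CPM in the grafts and 87.7 to 112 CPM in the spleens, 4.37-fold lower (log2 fold change -2.13, SE 0.10, adjusted p = 3.03e-13). Myc was lower as well, at 8.82 to 19.8 CPM against 17.3 to 34.2 CPM, with groups that overlapped.

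Other members changed side or joined. Ldha was at 140, 182, 174, 179 and 180 CPM in the grafts and 193, 214, 196, 200 and 201 CPM in the spleens. All 5 graft libraries were below all 5 spleen libraries, a drop of 0.23 on the log2 scale (SE 0.07, adjusted p = 0.00835), where 1 week had shown a rise. Mif was lower too, at 154 to 219 CPM against 233 to 276 CPM (adjusted p = 0.00178), and lost the call when cells without a Cd8 UMI were included. Ldhb, called higher with library totals, was not called with the library number as a block (log2 fold change 0.32, adjusted p = 0.0513). Eno1 was 1.32-fold lower, P4ha1 1.71-fold, Slc16a1 1.43-fold and Pdha1 1.18-fold. Slc16a1 lost its call with cells without a Cd8 UMI included. Pgk1 was at 80.0 ± 5.58 CPM in graft and 88.4 ± 7.96 in spleen (SD, n = 5, adjusted p = 0.098), and was called lower under all 3 other scalings. Aldoc was at 3.06 to 5.77 CPM in graft and 0 to 1.21 CPM in spleen (log2 fold change 2.73, SE 0.43, with 231 and 8 UMIs). It too passed the expression filter only through the grafts. Bnip3 was at 5.17 to 7.63 CPM against 2.01 to 3.45 CPM, 2.31-fold higher (adjusted p = 0.000113), and Bnip3l was 1.43-fold higher, a call lost when totals left out mitochondrial and ribosomal protein genes. Egln1 and Pfkfb3 were called higher with library totals and not with TMM factors or DESeq2. Slc2a1 (adjusted p = 0.0643), Pfkm (adjusted p = 0.194) and Pfkfb4 (adjusted p = 0.831) did not pass, and Egln3, with 67 and 20 UMIs, was not tested.

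At 3 weeks the other signals also differed between tissues. The B cell markers, with 6 of 6 called lower in graft, summed to 13.9 to 32.9 CPM in graft and 124 to 369 CPM in spleen, the myeloid markers, with 6 higher and 2 lower of 8 tested, to 494 to 881 and 72.2 to 139 CPM, CD4 T cell markers to 126 to 144 and 22.1 to 33.8 CPM, and immediate early and stress genes to 7001 to 7990 and 2895 to 3390 CPM. The sum of the CD4 T cell markers does not show in which direction each of them moved. Of these 20 stress genes 17 were called higher in graft and 2 lower. Of 12 cycle genes 7 were called higher and 2 lower, with sums of 755 to 792 CPM in graft and 612 to 730 CPM in spleen. All 7 CD8 T cell markers were higher, at 9189 to 9972 CPM against 4445 to 4753 CPM in sum. Kidney parenchyma genes summed to 17.1 to 24.5 CPM in graft and 19.7 to 28.6 CPM in spleen, with 2 of 3 tested called higher and 1 lower. The median non-dividing cell had 2184 UMIs in graft and 4178 in spleen, with 2.05% and 4.27% of them mitochondrial. Their part in the results was not tested.

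A test of the difference between the tissue effects at 3 weeks and at 1 week (an interaction term in edgeR over the 16 libraries) called 11 members lower and 4 higher of 33 tested. Over all genes 7.15% were called lower and 21.5% higher. Among the members Ldha shifted by -0.98 on the log2 scale (SE 0.13, adjusted p = 5.23e-06), Slc16a1 by -0.97, P4ha1 by -0.92, Mif by -0.90, Pgk1 by -0.79, Hif1a by -0.68, Gapdh by -0.67, Pfkp by -0.54, Eno1 by -0.47, Pkm by -0.40 and Aldoa by -0.36. Ldhb shifted upward by 1.25 (adjusted p = 0.000156), Aldoc by 1.86, Pfkl by 0.57 and Egln1 by 0.47, of which the last 3 lost their calls with TMM factors. The call of Aldoa was lost under 9 alternatives, 7 of them a left-out library, and those of Eno1 and Pkm under 3 each, 2 of them a left-out library. The difference was not called for Hk2 (-0.06, SE 0.51), Slc16a3 (0.04, SE 0.41) or Pdk1 (0.13, SE 0.17), and intervals this wide do not show that the effects were alike. These SEs were derived from the test statistic and are poorly determined for changes this near 0. Tpi1 missed the threshold with library totals (-0.46, SE 0.20, adjusted p = 0.0867) and was called with the library number as a block (-0.48, adjusted p = 0.0166), with TMM factors, with DESeq2 and with totals that left out mitochondrial and ribosomal protein genes. The median of all genes was 0.24 in this test. With TMM factors it was 0.02 and 15 members were called lower and 1 higher, so that the share of higher calls over all genes went from 75.1% to 45.6%. In the same test 6 of 6 B cell markers shifted upward, as did 2 of 3 tested NK cell, 3 of 7 CD8 T cell and 3 of 8 tested myeloid markers, and of 20 stress genes 10 shifted upward and 2 downward. Of 12 cycle genes 1 shifted upward and 3 downward. What these signals contribute was not tested.

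Compared directly, grafts of 3 weeks had less of most glycolytic RNAs than grafts of 1 week. In non-dividing cells 16 members were lower and 8 higher of 33 tested. Over all genes 17.1% were lower and 55.9% higher, with a median of 0.46 that TMM factors brought to 0.02, giving 20 members lower and 4 higher (of all calls 76.6% and 49.6% were higher). Gapdh was at 952 to 1367 CPM at 1 week and 511 to 707 CPM at 3 weeks, and Ldha at 289 to 361 and 140 to 182 CPM. Neither gene overlapped between the times. Pgk1 fell by 0.94 on the log2 scale, Mif by 0.94, Ldha by 0.92, Hif1a by 0.81, Gapdh by 0.77 and Slc16a3 by 1.27. Hk2 was at 10.9 to 13.0 CPM at 1 week and 6.40 to 15.1 CPM at 3 weeks (log2 fold change 0.18, adjusted p = 0.477). Ldhb rose by 1.98-fold, Pfkl by 1.88-fold, Egln1 by 1.67-fold and Bnip3 by 1.73-fold. The rise of Slc2a3 (1.22-fold) and that of Bnip3l (1.26-fold) reversed with TMM factors, and those of Hk1 and Bnip3 lost their calls. Cells with exactly 1 cycle gene made up 29.0% of non-dividing graft cells at 1 week and 14.9% at 3 weeks, and of the 12 cycle genes 8 were lower and 1 higher at 3 weeks (sums of 897 to 1439 and 755 to 792 CPM). Of 6 B cell markers 5 were higher at 3 weeks (9.32 to 10.9 and 13.9 to 32.9 CPM), as were both tested NK cell markers (12.6 to 13.8 and 26.5 to 51.6 CPM). Of 4 CD4 T cell markers 3 were lower, and of 20 stress genes 12 were higher and 6 lower. Their part in the results was not tested. These comparisons set libraries of different times side by side, and time and library preparation cannot be told apart.

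In the 24-week libraries, read by label, Hk2, Hif1a, Tpi1 and Gapdh were lower and Pdk1 and Myc higher under the graft label, the reverse of 1 and 3 weeks. With label graft over label spleen, 13 members were called lower and 5 higher of 29 tested, where 39.2% of all 9811 genes were lower and 14.5% higher. Hk2 was at 1.76, 0.622 and 1.44 CPM in the libraries labelled graft and 6.10, 3.30 and 3.46 CPM in those labelled spleen. It passed the expression filter only through the libraries labelled spleen, where it was high. Hif1a was at 35.2, 46.0 and 42.5 CPM and 145, 111 and 113 CPM. Pdk1 was at 82.4, 88.7 and 74.2 CPM in the libraries labelled graft and 22.5, 18.9 and 20.3 CPM in those labelled spleen, log2 fold change 1.98 (SE 0.12, adjusted p = 4.85e-10). Myc was at 34.2, 26.4 and 41.3 CPM under the graft label against 18.9, 17.7 and 14.1 CPM. Ldha (1.31-fold), Mif (1.31-fold) and Pdha1 were also called higher under the graft label. Tpi1, Gapdh, Aldoa, Hk1, Slc2a1 and Slc2a3 were lower, by log2 fold changes from -0.47 to -0.98. Ldhb was lower under the graft label, at 13.0 to 19.4 CPM against 31.2 to 31.5 CPM, and was called under every alternative. Bnip3, Bnip3l, Egln1 and Pfkp were called lower with library totals only among the 4 ways of scaling, and the sign of Egln1 and Pfkp reversed when totals left out mitochondrial and ribosomal protein genes. Under those totals Slc2a3, Hk1, Aldoa and Gapdh lost their calls as well, and with DESeq2 Slc2a1, Slc2a3 and Hk1 did. The median of all genes was -0.23, and totals without mitochondrial and ribosomal protein genes moved it to 0.14 and the members to 5 lower and 9 higher (share of higher calls 27.1% and 60.2%). Slc16a1, Gpi1, Pfkl, Pgk1, Pgam1, Eno1, Pkm, Pdk3, Pfkfb3, Pfkfb4 and P4ha1 did not pass with library totals. Gpi1, Pgk1 and Eno1 were called higher under all 3 other scalings, and Pfkl under 2 of them. Immediate early and stress genes summed to 4134 to 4602 CPM under the graft label and 7931 to 9523 CPM under the spleen label. Of the markers, 6 of 6 B cell genes were higher under the graft label (100 to 265 and 18.5 to 58.5 CPM in sum), 7 of 7 CD8 T cell genes lower (4854 to 5177 and 8662 to 8917 CPM), 3 of 4 tested myeloid genes lower and 2 of 3 tested CD4 T cell genes lower. Of 8 tested cycle genes 5 were lower and 1 higher. What these signals contribute was not tested. The CD8 T cell markers lay opposite to the earlier times, and so did Hspa1a, which was named after its values were seen. The sum of kidney parenchyma genes was higher under the graft label and had not separated the tissues at 1 or 3 weeks. No direction between tissues is drawn from the 24-week libraries.

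**Figure D3:**
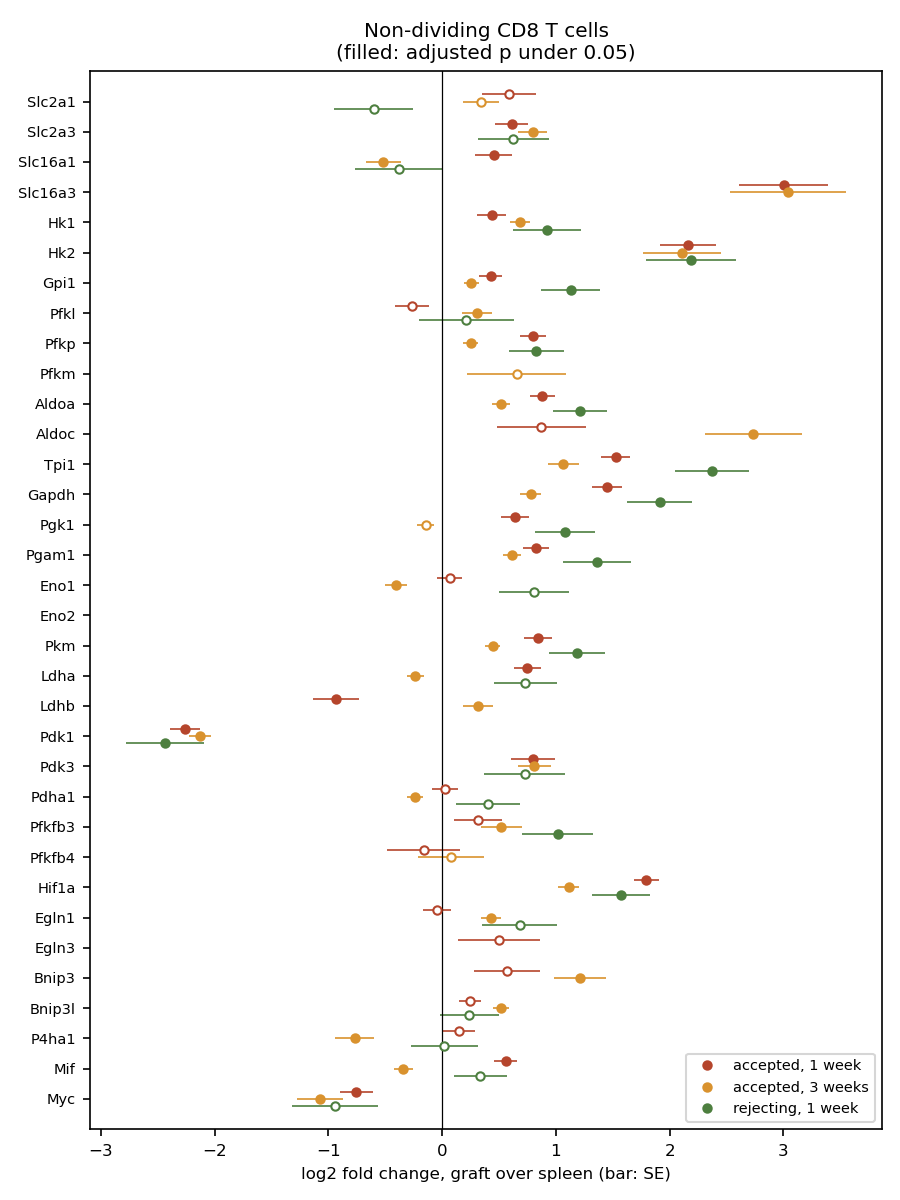
Log2 fold change of graft over spleen for each member in non-dividing cells of accepted recipients at 1 week (red) and 3 weeks (orange) and of rejecting recipients at 1 week (green). Bars are SE and filled points passed an adjusted p of 0.05. Ldha lies at 0.75 at 1 week and at -0.23 at 3 weeks, while Pdk1 lies between -2.13 and -2.43 in all 3 comparisons.

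In rejecting grafts at 1 week most of the tested glycolytic enzymes were also higher than in the spleens of the recipients. The summed level was 3431 and 4272 CPM in the 2 grafts and 1974, 1931 and 1919 CPM in the 3 spleens. edgeR called 12 members higher and 1 lower of 26 tested, against 14.6% and 6.24% of all 7512 genes. With TMM factors 9 and 2 members were called and with DESeq2 6 and 1, and the median of all genes moved from 0.22 to 0.003 with TMM factors (share of higher calls over all genes 70.0% and 52.2%). Tpi1 was at 105 and 163 CPM in the grafts and 23.7, 35.8 and 23.5 CPM in the spleens, 5.19-fold higher (adjusted p = 3.43e-05). Hk2 was at 61.8 and 49.0 CPM in the grafts and 14.8, 21.5 and 6.72 CPM in the spleens, 4.57-fold higher (adjusted p = 0.000541). Gapdh was at 612 and 994 CPM in the grafts and 254, 114 and 235 CPM in the spleens, 3.76-fold higher. Hif1a was at 287 CPM in both grafts and at 93.4, 136 and 80.6 CPM in the spleens, 2.98-fold higher (adjusted p = 0.000212). Pgam1, Pkm, Aldoa, Gpi1 and Pgk1 were higher by 2.11-fold to 2.56-fold. Hk1, Pfkp and Pfkfb3 were called with library totals and lost the call with TMM factors. Gpi1, Pgam1 and Pgk1 lost theirs with DESeq2, and Pgk1 also without graft library 3, 1 of only 2. Pdk1 was at 19.7 and 8.65 CPM in the grafts and 93.4, 78.7 and 79.0 CPM in the spleens, 5.40-fold lower (adjusted p = 4.65e-05).

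Members that did not pass in the rejecting group included Ldha, at 225 and 370 CPM in graft and 165, 250 and 148 CPM in spleen, where the groups overlapped (adjusted p = 0.0728). Ldha was called with all cells, after thinning, with 3 cycle genes, with no filter, and without graft library 2 or spleen library 2. Alternatives also called Eno1 (all cells, thinning) and Myc (TMM factors, totals without mitochondrial and ribosomal protein genes). Eno1 (adjusted p = 0.073), Myc (adjusted p = 0.0884), Pdk3 (adjusted p = 0.166), Mif (adjusted p = 0.353), Slc2a1, Slc2a3, Slc16a1, Pfkl, Pdha1, Egln1, Bnip3l and P4ha1 also missed the threshold. Aldoc, Bnip3, Egln3, Eno2, Ldhb, Pfkfb4, Pfkm and Slc16a3 were too low to test. Slc16a3 had 29 UMIs in the grafts (12.5 and 14.4 CPM) and 1 UMI in the spleens. This group was shallow. It held 1104 non-dividing cells in the grafts and 683 in the spleens, and 1 spleen library had 153266 UMIs in all. B cell markers summed to 4.32 to 12.5 CPM in graft and 150 to 595 CPM in spleen, myeloid markers to 410 to 442 and 129 to 1280 CPM, and stress genes to 1714 to 2907 and 1665 to 1750 CPM. Of 7 tested cycle genes 4 were higher and 0 lower in graft, of 7 CD8 T cell markers 6 were higher, and the 1 tested NK cell marker and the 1 tested CD4 T cell marker were higher. Cells with exactly 1 cycle gene made up 23.8% of non-dividing graft cells and 10.4% of spleen cells. Their part in the results was not tested.

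The difference between the rejecting and the accepted tissue effects at 1 week was called for 0 of 33 members in either direction by edgeR and by DESeq2, against 1.15% higher and 0.626% lower over all 11669 genes. At an unadjusted p under 0.05, edgeR gave 6 members, with shifts of -1.21 for Slc2a1, -0.85 for Slc16a1, 0.72 for Gpi1, 0.85 for Tpi1, 0.75 for Eno1 and 0.75 for Egln1. Of all genes 14.6% had such a p. Of all calls 64.7% were higher, a share that was 47.4% with TMM factors and 36.5% with DESeq2. The shifts of Hk2 (0.06, SE 0.59), Tpi1 (0.85, SE 0.34), Gapdh (0.42, SE 0.30), Hif1a (-0.19, SE 0.24) and Pdk1 (-0.17, SE 0.34) had wide errors and do not show that the effects were alike. The SE of a shift near 0, such as that of Hk2, is poorly determined. Some levels were far apart in both tissues of the groups. Pfkfb3, which drives phosphofructokinase, was at 90.1 and 96.6 CPM in rejecting grafts and 14.3 to 58.8 CPM in their spleens, while every accepted and naive group had a mean of 6.76 to 11.7 CPM. Hk2 in rejecting spleens (6.72 to 21.5 CPM) was above that of accepted spleens of 1 week (1.96 to 3.31 CPM), and so was Slc2a1, at 21.5 to 40.1 CPM against 6.03 to 8.52 CPM. These level differences were not tested, and recipient strain and rejection cannot be told apart in them. Rejecting spleen library 2 held 139816 UMIs in its non-dividing cells, so its levels rest on few UMIs. The matrices also differed in make, with 32285 genes in both rejecting matrices and 17197 in both accepted ones of 1 week. Of the cells with a Cd8 UMI, 0% also had a Cd4 UMI in rejecting graft and 0.689% in rejecting spleen. The share was 3.11% in accepted graft and 2.62% in accepted spleen of 1 week. What this difference contributes was not tested.

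In all 3 comparisons, of accepted grafts at 1 and at 3 weeks and of rejecting grafts, 10 members were called higher in graft, namely Hk1, Hk2, Gpi1, Pfkp, Aldoa, Tpi1, Gapdh, Pgam1, Pkm and Hif1a. Pdk1 was the only member called lower in all 3. Of the 34 members 26 were tested in each comparison. Of the 7303 genes tested in each, 11.6% were called higher and 4.64% lower in all 3. For Gpi1 and Pfkp the sign at 3 weeks turned with TMM factors. In rejecting grafts Hk1, Gpi1, Pfkp and Pgam1 were not called with DESeq2, and at 3 weeks Aldoa and Pkm were not called when totals left out mitochondrial and ribosomal protein genes.

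Dividing cells were compared separately, since graft and spleen differed in the share of dividing cells. In accepted recipients at 1 week the summed level in dividing cells was 5295, 5184 and 5441 CPM in graft and 3570, 3613 and 3461 CPM in spleen. edgeR called 12 members higher in graft and 1 lower of 29 tested, against 5.57% and 7.28% of all 9509 genes. The spleen side was thin, with 54, 48 and 178 dividing cells per library, and without spleen library 3 the higher calls fell to 7, while without spleen library 1 the lower call was lost. The 12 were Slc16a3, Hk2, Pfkp, Aldoa, Tpi1, Gapdh, Pgk1, Pgam1, Pkm, Ldha, Hif1a and Mif, each of which was also called in the non-dividing cells. Ldha was at 611, 542 and 572 CPM in graft and 273, 272 and 329 CPM in spleen, 1.93-fold higher (adjusted p = 5.07e-05). Tpi1 was at 225, 214 and 202 CPM in graft and 117, 85.8 and 69.7 CPM in spleen, 2.53-fold higher. Hif1a was at 230, 207 and 189 CPM in graft and 120, 85.8 and 80.4 CPM in spleen, 2.28-fold higher. Mif was 1.80-fold and Aldoa 1.90-fold higher. Hk2 and Slc16a3 rested on 7 and 6 spleen UMIs and lost their calls without spleen library 3, as did Pfkp, Gapdh and Pkm. After thinning Slc16a3, Pfkp, Gapdh and Pgk1 lost theirs, which left 8 members called higher. Pdk1 was at 11.5, 10.4 and 9.63 CPM in graft and 42.3, 22.4 and 17.2 CPM in spleen, a call (adjusted p = 0.0211) that was lost when 3 cycle genes were required, when cells were thinned to 1000 UMIs before the dividing rule, and without spleen library 1. The cell counts behind the spleen values also mean that members missing the threshold, such as Pfkl (log2 fold change 0.79, adjusted p = 0.0546), Slc2a1, Hk1, Gpi1, Eno1, Pdk3 and Myc, cannot be called unchanged. B cell markers summed to 7.86 to 10.9 CPM in the dividing graft cells and 351 to 1338 CPM in the dividing spleen cells, and the 12 cycle genes to 7254 to 8263 and 8456 to 10570 CPM. Of 20 stress genes 10 were called higher in graft and 0 lower (4571 to 5442 and 2355 to 3419 CPM in sum), with Hspa1a at 99.8 to 235 CPM in graft and 0 in all 3 spleen libraries. Of 7 tested myeloid markers 3 were higher and 2 lower (323 to 415 and 172 to 791 CPM). Their part in the results was not tested.

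**Figure D4:**
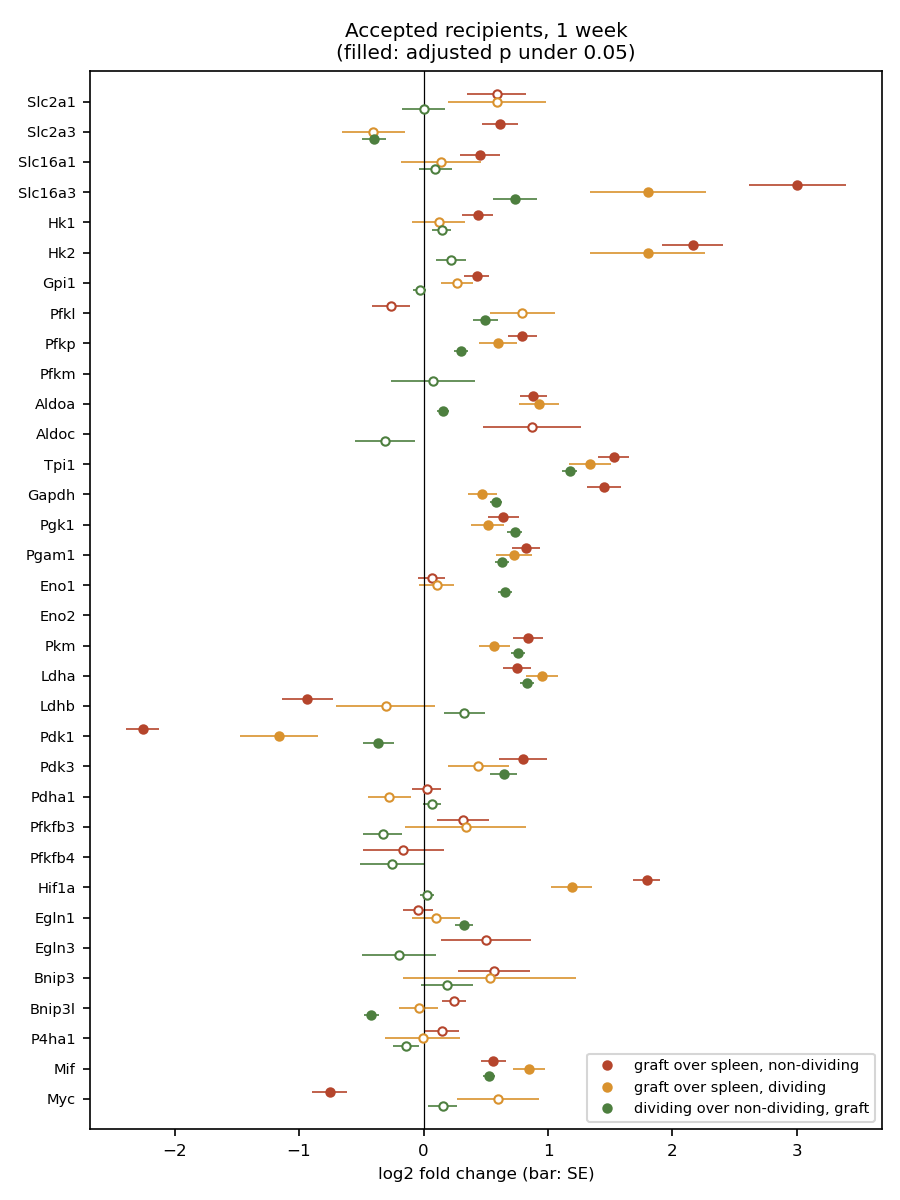
Log2 fold changes of each member in accepted recipients at 1 week, for graft over spleen in non-dividing cells (red) and in dividing cells (orange), and for dividing over non-dividing cells within the graft (green). Bars are SE and filled points passed an adjusted p of 0.05. Hif1a lies at 1.79 and 1.19 between tissues and at 0.03 between dividing and non-dividing graft cells.

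The tissue effect was not the same size in both classes of cell for 6 members. The test of that difference called Slc2a3 (-1.03), Gapdh (-0.96) and Hif1a (-0.61) shifted downward in dividing cells, and Pfkl (1.02), Pdk1 (1.15) and Myc (1.38) shifted upward. Over all genes 11.5% were called lower and 2.59% higher, with a median of -0.13. With TMM factors 2 members were called lower and 5 higher (share of higher calls over all genes 18.4% and 41.7%). The 3 upward calls and that of Slc2a3 were lost without spleen library 3, and that of Hif1a with TMM factors and with DESeq2. Of 12 cycle genes 11 shifted downward and 1 upward in this test, of 7 CD8 T cell markers 4 downward, and of 20 stress genes 6 upward, and what they contribute was not tested. Gapdh (adjusted p = 7.86e-09) was at 1171, 1219 and 1120 CPM in dividing spleen cells, above the 952 and 958 CPM of 2 of the 3 non-dividing graft libraries.

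Within the accepted grafts of 1 week, dividing cells had more of the lower part of the pathway than non-dividing cells of the same libraries. With the library as a block, 14 members were higher and 3 lower of 33 tested, against 28% and 18.3% of all 10411 genes, and the shares of higher calls were 60.5% and, with TMM factors, 50.6%, or 48.3% when totals left out mitochondrial and ribosomal protein genes. Tpi1 was at 225, 214 and 202 CPM in dividing and 91.6, 91.4 and 99.3 CPM in non-dividing cells, 2.26-fold higher (adjusted p = 4.98e-11). Ldha was at 611, 542 and 572 CPM against 319, 289 and 361 CPM, 1.78-fold higher. Pkm was 1.70-fold higher, Pgk1 1.66-fold, Eno1 1.57-fold, Pgam1 1.55-fold, Gapdh 1.50-fold and Mif 1.44-fold. Eno1, Pfkl (1.41-fold) and Egln1 (1.25-fold) were called here and not between tissues in either class of cell, and so was Bnip3l among the lower ones. Pdk3 (1.56-fold), Slc16a3 (1.66-fold), Pfkl, Pfkp (1.23-fold) and Egln1 lost the call when cells were thinned before the dividing rule, under which 8 members were higher, and Aldoa (1.12-fold) reversed. Bnip3l was lower, at 96.5, 102 and 81.3 CPM in dividing against 130, 126 and 116 CPM in non-dividing cells, and Slc2a3 and Pdk1 were lower by 1.32-fold and 1.29-fold, with calls lost in DESeq2, and that of Pdk1 also without any 1 of the 3 libraries. Hif1a and Hk2, which differed between tissues, did not pass here, Hif1a at 208 ± 20.5 CPM in dividing and 203 ± 16.4 in non-dividing cells (SD, n = 3, adjusted p = 0.729), and Hk2 at 13.4 ± 2.53 and 11.7 ± 1.15 (SD, n = 3, adjusted p = 0.159). Dividing cells had a median of 4316 UMIs and non-dividing cells 2126, and the rule of 2 cycle genes depends on depth. In the dividing cells 6 of 7 CD8 T cell markers were lower, 2 of 3 tested CD4 T cell markers higher, and of 6 tested myeloid markers 3 lower and 1 higher. What these markers contribute was not tested.

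The rejecting grafts gave values of the same kind without a test, with a summed level of 4773 and 5524 CPM in dividing and 3431 and 4272 CPM in non-dividing cells. Tpi1 was at 229 and 275 CPM in dividing and 105 and 163 CPM in non-dividing cells, Ldha at 399 and 547 against 225 and 370 CPM, and Hk2 at 67.7 and 63.7 against 61.8 and 49.0 CPM. In grafts of 3 weeks, 22 to 46 cells per library met the dividing rule. In libraries 1 to 5 the sum was 2502, 2929, 2701, 2874 and 2910 CPM in dividing cells. In the non-dividing cells of the same libraries it was 2355, 2760, 2683, 2770 and 2763 CPM. The ranges overlapped, while within each of the 5 libraries the dividing sum was higher, which was not tested. Dividing cells made up 24.1% to 48.2% of Cd8 cells in the accepted graft libraries of 1 week, 0.508% to 1.31% at 3 weeks and 2.61% to 10.1% in the spleens of 1 week.

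Recipient spleens of 1 week were also compared with naive spleens, which had the lowest mean sum among the accepted and naive groups, at 1944 to 2106 CPM against 2144 to 2222 CPM. edgeR called 8 members higher and 3 lower of 29 tested, against 18.3% and 38.4% of all 10027 genes, with a median of -0.21 that TMM factors brought to -0.02, under which 11 were higher and 2 lower (share of higher calls over all genes 32.3% and 52.2%). Gapdh was at 370 to 426 CPM in recipient and 262 to 298 CPM in naive spleen, 1.43-fold higher (adjusted p = 3.71e-06). Tpi1 was at 28.7 to 40.2 CPM against 16.8 to 23.6 CPM, 1.58-fold higher. Aldoa was 1.32-fold, Pgam1 1.32-fold, Pgk1 1.22-fold and Ldhb 1.46-fold higher, and Hk2 (1.87-fold) and Mif (1.14-fold) were called with groups that overlapped and lost their calls under 6 and 7 alternatives. Pdk1 was at 62.5 to 68.8 CPM in recipient and 95.2 to 120 CPM in naive spleen, 1.72-fold lower (adjusted p = 2.05e-07), and P4ha1 was 1.80-fold lower. Egln1 was called lower with groups that overlapped, and not with TMM factors or DESeq2. Hif1a (adjusted p = 0.0717) did not pass with library totals and was called with TMM factors and with DESeq2. Ldha (adjusted p = 0.917) did not pass. B cell markers summed to 509 to 984 CPM in recipient and 32.1 to 62.7 CPM in naive spleen, and stress genes to 2961 to 4803 and 2070 to 2425 CPM. All 3 tested CD4 T cell markers, both tested NK cell markers and 5 of 6 tested myeloid markers were higher in recipient spleen and both tested red cell markers lower. Their part in the results was not tested. These spleens of 1 week are the same libraries that the graft comparison used.

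Around the 34 members, other genes of the same metabolism were counted in non-dividing cells of accepted grafts over spleens. Of all genes, 26.4% were called higher and 18.3% lower at 1 week and 48.7% and 16.7% at 3 weeks, and several of the shares that follow, above all at 3 weeks, lie near these. Of 13 tested further hypoxia targets at 1 week 9 were higher and 3 lower, led by Plod2 (log2 fold change 3.54), Bhlhe40 (3.21) and Mxi1 (2.68), and at 3 weeks 7 were higher (53.85%) and 3 lower (23.08%). Bhlhe40 encodes a transcriptional repressor and Mxi1 an antagonist of MYC. Of 8 tested regulators of the response 5 were higher at 1 week and 7 at 3 weeks and 0 were lower, led by the elongin gene Elob (1.00) at 1 week and by Vhl (1.24), whose product recognises hydroxylated HIF, at 3 weeks. Among 8 tested further glycolytic isoforms and feeders only Gpd2, the mitochondrial glycerol phosphate dehydrogenase, was called at 1 week (1.24), and at 3 weeks 2 of 10 were higher and 2 lower. Of 7 tested pentose phosphate genes 5 were higher at 1 week and 6 at 3 weeks. Of 22 genes of pyruvate dehydrogenase and the TCA cycle 8 were higher and 2 lower at 1 week and 11 and 3 at 3 weeks (50.0% and 13.64%), with Idh2 lower at both times (-0.87 and -1.33). Of 22 respiratory chain and ATP synthase genes 21 were higher and 0 lower at 1 week, led by Cox5b (1.18), and 14 and 1 at 3 weeks. Of 20 tested genes linked to MYC and mTORC1, 9 were higher and 2 lower at 1 week and 9 and 8 at 3 weeks. Mxd1, which opposes MYC, led the higher ones at 1 week (2.25), and Txnip, which restrains glucose uptake, the lower ones (-1.35). In rejecting grafts, where 14.6% of all genes were called higher and 6.24% lower, the tested further hypoxia targets had 3 of 9 higher and 1 lower, the regulators 2 of 8 higher, the further glycolytic genes 1 of 6, the pentose phosphate genes 2 of 7, the respiratory chain genes 5 of 22 and the MYC and mTORC1 genes 3 of 19, with 1 lower. The TCA cycle list had 0 of 20 higher and 1 lower. The difference between the rejecting and the accepted tissue effects was called by edgeR for 0 of 22 respiratory chain genes and 0 of 22 TCA cycle genes, with 2 and 1 at an unadjusted p under 0.05. Of 20 tested MYC and mTORC1 genes 1 was called lower and 0 higher, with 7 at such a p. None of the 4 other lists had a call. Over all genes 1.15% were called higher and 0.626% lower, and 14.6% had an unadjusted p under 0.05 by edgeR.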

How the data were processed

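The authors sequenced 10x Genomics 3' libraries of sorted CD45+ cells and, per the labels, processed them with Cell Ranger on mm10 (version not given in the sources used here). The study's methods filtered cells on UMIs, genes and mitochondrial content, and do not say whether the deposited matrices were made before or after that step. The deposited CD8 files hold counts of UMIs per gene and cell, not normalized, one matrix for a group, with the library as a tag on the barcode. Each tag was taken as 1 mouse. Some cells lack a Cd8 UMI. Total UMIs per library ran from 153266 to 25960721.

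For cells in which Cd8a or Cd8b1 was detected, counts were summed per library and class (dividing: at least 2 of 4 cycle genes). Libraries with under 20 dividing cells entered no test of dividing cells. Sums were tested with edgeR 4.0.16 (quasi-likelihood, library totals, Benjamini-Hochberg adjustment over all genes passing its expression filter, threshold 0.05) in R 4.3.3, on genes present in the matrices compared. Interactions were fitted over both pairs of groups, and dividing against non-dividing cells with the library as a block. Levels are summed UMIs per 1000000, so an SD is between libraries. The SE of a log2 fold change is its absolute value divided by the square root of the F statistic of the edgeR test. It is not a fitted standard error and is poorly determined for changes near 0. Alternatives were TMM factors, totals without mitochondrial and ribosomal protein genes, DESeq2 1.42.0, no filter, other cell and dividing rules, each library left out, and library number as a block. Scripts were tested on simulated data. No doublet caller was run.

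Library numbers in the tags gave same-numbered graft and spleen. At 3 weeks the deviations of each of the 5 same-numbered pairs from their group means correlated, with r from 0.111 to 0.462 over 5336 genes. Differently numbered pairs gave r from -0.334 to 0.167, so the ranges overlapped, and a number is not shown to mark a mouse.

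The members and the other gene lists were chosen with earlier results of these data known. All 34 members were described, and of other lists at most the 3 genes with the largest change in each direction among those called. Marker, kidney parenchyma and stress gene lists are given by counts and sums. Hspa1a falls outside this rule and was chosen after its values were seen. One CD45 matrix was used only to check the gene order of the rejecting graft matrix. Promoter windows came from RefSeq on GRCm38.p6, and Python 3.11.15 was used.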

Additional observations from a re-analysis of the deposited data

Results flagged for a closer look

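In groups of 4 or 5 libraries, a member was looked at again where its highest or lowest library stood apart from the others by Dixon's test, which by chance marks about 1 in 20 groups. Of 83 pairs of member and group 6 did so. In the accepted grafts of 3 weeks, library 1 was the lowest for 5 members, with Slc16a3 at 1.86 CPM (the next library at 2.87), Hk2 at 6.40 (14.9), Aldoa at 157 (197), Tpi1 at 43.4 (63.8) and Ldha at 140 (174). In naive spleen, library 2 was the highest for Hif1a, at 59.5 CPM (the next at 51.2).

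The graft over spleen change at 1 week differed between dividing and non-dividing cells, by a test of the difference itself, for 6 members. On the log2 scale the shifts, dividing minus non-dividing, were -1.03 for Slc2a3, 1.02 for Pfkl, -0.96 for Gapdh, 1.15 for Pdk1, -0.61 for Hif1a and 1.38 for Myc. Over all genes 11.5% were called lower and 2.59% higher. Of the 6 calls only that of Gapdh held under every alternative tried.

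The graft over spleen change of accepted recipients differed between 3 weeks and 1 week, by the same kind of test, for 15 members. The log2 shifts, 3 weeks minus 1 week, were -0.97 for Slc16a1, 0.57 for Pfkl, -0.54 for Pfkp, -0.36 for Aldoa, 1.86 for Aldoc, -0.67 for Gapdh, -0.79 for Pgk1, -0.47 for Eno1, -0.40 for Pkm, -0.98 for Ldha, 1.25 for Ldhb, -0.68 for Hif1a, 0.47 for Egln1, -0.92 for P4ha1 and -0.90 for Mif. Over all genes 21.5% were called higher and 7.15% lower. Of the 4 upward calls 1 held under every alternative tried, that of Ldhb. Of the 11 downward calls 8 held, and those of Aldoa, Eno1 and Pkm did not.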

How the results depend on the processing

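Counts of members called higher or lower were recomputed under each alternative, and the cause of a change was not tested. With TMM factors, against library totals, the higher calls went from 5 to 9 at the 24-week labels, from 3 to 5 for dividing against non-dividing tissue effects, from 4 to 1 for 3 weeks against 1 week tissue effects and from 8 to 4 for 3-week over 1-week grafts, and the lower calls in rejecting grafts from 1 to 2. Over all genes these counts, in this order, went from 1427 to 2367, 279 to 504, 2445 to 1260, 6353 to 3597 and 469 to 669. Totals without mitochondrial and ribosomal protein genes gave 11 higher at 3 weeks (20), 9 higher and 5 lower at the 24-week labels (5 and 13), 2 lower in rejecting grafts (1), 5 higher for dividing against non-dividing tissue effects (3), 1 higher for 3 weeks against 1 week tissue effects (4) and 5 lower in recipient over naive spleen (3). In the same order, the counts over all genes were 2700 (5163), 3084 and 2043 (1427 and 3846), 753 (469), 607 (279), 1509 (2445) and 4303 (3852). DESeq2 gave 8 higher and 6 lower at the 24-week labels, 6 higher in rejecting grafts (12), 1 lower for dividing over non-dividing cells (3), 1 higher for 3 weeks against 1 week tissue effects and 3 higher for 3-week over 1-week grafts (8). Its counts over all genes, in the same order, were 1792 and 2124 (1427 and 3846), 426 (1093), 1006 (1903), 1080 (2445) and 3326 (6353). All cells of the matrices gave 5 lower at 1 week (3). Dividing by 3 genes gave 0 lower in dividing cells (1). Thinning gave 0 lower there, 8 higher for dividing over non-dividing cells (14) and 5 lower for dividing against non-dividing tissue effects (3). For all genes thinning gave 490 (692), 1801 (2915) and 1180 (1240), the 3-gene rule 594 lower in dividing cells (692) and all cells 2534 lower at 1 week (1906). Leaving out 1 library at a time gave higher and lower counts of 16 to 20 and 3 at 1 week, 16 to 20 and 8 to 9 at 3 weeks, 4 to 6 and 11 to 14 at the 24-week labels, 8 to 11 and 1 in rejecting grafts, 7 to 12 and 0 to 1 in dividing cells, 13 to 15 and 2 for dividing over non-dividing cells, 0 to 4 and 2 to 3 for dividing against non-dividing tissue effects, 2 to 4 and 9 to 12 for 3 weeks against 1 week tissue effects, 0 and 0 for rejecting against accepted, 7 to 10 and 14 to 17 for 3-week over 1-week grafts and 5 to 8 and 2 to 3 in recipient over naive spleen. The higher calls were 2 for 3 weeks against 1 week tissue effects without 1-week graft library 3, 3-week graft library 3 or 3-week spleen library 2, and 5 in recipient over naive spleen without recipient spleen library 2. Log2 changes that reversed were, at 3 weeks, Gpi1 (TMM -0.009, totals -0.103, DESeq2 -0.011), Pfkp (TMM -0.015, totals -0.11, DESeq2 -0.018), Ldhb (totals -0.044, all cells -0.504) and Pfkl (totals -0.055), at the 24-week labels Egln1 (totals 0.032) and Pfkp (totals 0.052), for dividing over non-dividing cells Aldoa (thinning -0.026), and for 3-week over 1-week grafts Bnip3l (TMM -0.107, DESeq2 -0.112), Gpi1 (TMM -0.326, DESeq2 -0.331), Slc2a1 (TMM -0.366) and Slc2a3 (TMM -0.14, DESeq2 -0.145). With the library number as a replicate block, higher and lower counts were 18 and 3 at 1 week (Slc2a1 gained, log2 0.57, adjusted p = 0.0229 by edgeR), 19 and 8 at 3 weeks, 5 and 12 at the 24-week labels (Bnip3 lost, -0.80, adjusted p = 0.0509), 12 and 1 in rejecting grafts, 12 and 1 in dividing cells, 4 and 12 for 3 weeks against 1 week tissue effects (Tpi1 gained, -0.48, adjusted p = 0.0166) and 0 and 0 for rejecting against accepted. The block changed no other call of these. Correlations of same-numbered deviations were 0.156, -0.002 and 0.105 at 1 week, 0.019, 0.08 and 0.225 at 24 weeks and -0.005 and 0.083 in rejecting recipients. Low summed UMIs limit the results of the dividing spleen cells, the rejecting libraries and members such as Slc16a3, Aldoc, Eno2, Egln3 and Pfkm.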
